A study of Mus musculus with 6 samples.

Results

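The mouse gene 1600014C10Rik (ENSMUSG00000054676 in the count table, on chromosome 7) was followed in stretched macrophages with and without knockdown of Piezo1. It is 1 of 55401 genes in the table and 1 of 15959 with enough counts to be tested. The row was found by matching its Ensembl identifier to the symbol, and the gene was chosen because it was lower in every siPiezo1 library than in every siNC library. Its levels in these groups are therefore a description, given without a test.

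1600014C10Rik is the mouse counterpart of human C19orf12. The human gene encodes a small membrane protein found in mitochondria and in the endoplasmic reticulum (ER), and its variants cause a form of neurodegeneration with brain iron accumulation (NBIA), a group of inherited disorders in which iron builds up in the basal ganglia. What the protein does in a cell is not settled; work in human cells and in model animals has linked it to lipid metabolism, autophagy and mitochondrial calcium. Piezo1, the target of the siRNA, is a cation channel that opens when the membrane is stretched.

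The cells were bone marrow-derived macrophages (BMDMs), primary macrophages grown in culture from the marrow of C57BL/6 mice. In 3 libraries (siPiezo1) they had been transfected with siRNA against Piezo1, and in 3 (siNC) with negative control siRNA. All cells, in both groups, had been stretched for 4 h, so no value here bears on stretch itself. The sources used here do not give the siRNA sequences, and an effect of losing Piezo1 and an effect of the siRNA itself cannot be told apart in this design. The labels do not say whether the libraries of a group came from separate animals or cultures, so the spread between them may be technical.

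Levels are given in CPM, counts scaled to a common library total. Libraries held 61086684 to 75052745 estimated counts, or about 16.1 to 19.8 M fragments at 3.8 counts each. Summed macrophage markers (10 genes) stood at 34553 to 37348 CPM in siPiezo1 and at 28181 to 35456 CPM in siNC. Most of that sum was Lyz2, so it says little about the other markers. Single markers differed in both directions: every siPiezo1 library was higher than every siNC library for Lyz2 and lower for Mrc1. Csf1r had 2290 CPM in siNC 2, against 4447 and 4547 CPM in siNC 1 and 3. One library, siNC 2, stood apart: across genes, the correlation of log2 CPM was 0.917 to 0.932 in pairs that include it and 0.936 to 0.950 in all other pairs. Its 8 neutrophil markers summed to 3160 CPM, against 593 to 616 CPM in siPiezo1 and 625 and 671 CPM in siNC 1 and 3. Each of the 8 was highest in siNC 2, but Ly6g only at 0.371 CPM, against 0 to 0.299 CPM elsewhere. The difference of siNC 2 was not limited to these markers, and genes of inflammation are given below. Of 5 T and B cell markers, 0 had enough counts to be tested, and their sum was at most 0.238 CPM in any library. List tallies and the neighbouring genes are given with and without siNC 2. Piezo1 had 111, 109 and 113 CPM in siPiezo1, against 180, 285 and 189 CPM in siNC. Its log2 fold change was -0.97 ± 0.18 (SE) and did not pass a threshold of 0.05 (adjusted p = 0.744, edgeR). Without siNC 2 the fall was smaller, at -0.73 ± 0.06 (SE), and passed (adjusted p = 0.00245, edgeR). DESeq2 called Piezo1 with all 6 libraries (adjusted p = 0.000982, DESeq2).

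In the mouse annotation used for names (GENCODE M21, build GRCm38), 1600014C10Rik lies on the plus strand with 9 transcripts, 8 of them protein-coding, whose exons cover 3949 bases. The coding models differ. In 2 of them the coding part is 423 bases long and has a gap of 1 base between coding blocks, too short to be an intron, whereas 5 have 249 coding bases and 1 has 165. RefSeq gives 2 start sites. A gene-level count adds up all of these transcripts, so the values below do not say which start or which coding model was lower. The stretches just before the starts are printed to show where the 2 sets of transcripts begin. They are written 5′ to 3′ on the plus strand of GRCm38.p6, from the RefSeq promoter table, without any annotated exon of the gene, and capitals mark matches to the CCAAT box on the opposite strand.
before start 1, chr7:38182967-38183216: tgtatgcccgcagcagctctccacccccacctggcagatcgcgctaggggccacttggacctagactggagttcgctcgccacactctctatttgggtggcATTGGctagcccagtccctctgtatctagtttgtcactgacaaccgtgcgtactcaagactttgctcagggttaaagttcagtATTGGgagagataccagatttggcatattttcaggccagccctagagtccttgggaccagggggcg
before start 2, chr7:38183537-38183652: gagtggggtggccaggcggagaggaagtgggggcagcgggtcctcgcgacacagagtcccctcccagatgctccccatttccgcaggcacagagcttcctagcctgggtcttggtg

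The stretch before start 1 is 250 bases long with a GC content of 55.2%, and the one before start 2 is 116 bases long with 66.4%. The full 250 bases before each start were searched on both strands for 5 motifs. CCAAT, the letters of the CCAAT box, was found 2 times before start 1 and 0 times before start 2; 33.8% of the 32851 RefSeq windows of that length hold it. The AP-1 site (TGANTCA, in 6.75% of windows), the E-box (CACGTG, in 6.02%), the GC box (GGGCGG, in 32.7%) and the CRE (TGACGTCA, in 1.55%) were found before neither start. These searches describe the letters of the windows and nothing more.

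1600014C10Rik was much lower after Piezo1 siRNA than after control siRNA. It had 1568, 1492 and 1623 estimated counts in siPiezo1 1, 2 and 3, against 3641, 4898 and 4153 estimated counts in siNC 1, 2 and 3. Scaled for library size, these were 21.9, 19.8 and 24.3 CPM in siPiezo1 and 59.9, 64.8 and 62.1 CPM in siNC. The groups lay far apart: the highest siPiezo1 library, siPiezo1 3, stood well below the lowest siNC library, siNC 1. The mean was 22.0 ± 2.23 CPM in siPiezo1 and 62.3 ± 2.44 CPM in siNC (SD, n = 3 each), which puts siPiezo1 at 35.3% of siNC. Taken pair by pair, the siPiezo1 level was between 30.6% of the siNC level (siPiezo1 2 against siNC 2) and 40.5% (siPiezo1 3 against siNC 1). In bulk RNA, fewer cells that express a gene and less RNA of it per cell cannot be told apart.

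**Figure D1:**
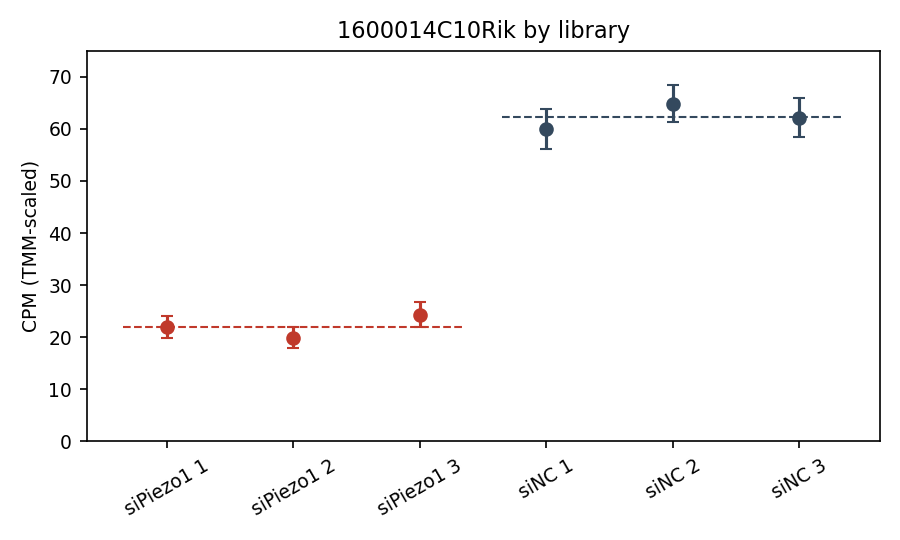
TMM-scaled CPM of 1600014C10Rik (vertical axis, from 0) in each of 6 libraries, siPiezo1 in red on the left and siNC in dark blue on the right; points are libraries, bars are exact Poisson 95% intervals for counting error only, and dashed lines are group means. The siPiezo1 libraries lie at 19.8 to 24.3 CPM, all below the siNC libraries at 59.9 to 64.8 CPM.

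The depth behind each value was moderate. One sequenced fragment was taken as about 3.8 estimated counts. On that basis the gene rested on about 413, 393 and 427 fragments in siPiezo1. In siNC it rested on about 958, 1289 and 1093 fragments. The exact Poisson 95% intervals ran over 17.9 to 26.7 CPM across the siPiezo1 libraries and over 56.2 to 68.5 CPM across the siNC libraries. They cover counting error only, since reads without molecular identifiers are not independent molecules. The coefficient of variation between libraries was 10.1% in siPiezo1 and 3.92% in siNC, where counting alone would give 4.93% and 3.00%.

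The log2 fold change of 1600014C10Rik was -1.50 ± 0.10 (SE), from the edgeR fit on all 6 libraries, and -1.48 ± 0.10 (SE) without siNC 2. The library that stood apart for so many genes lay only 0.09 above the mean of siNC 1 and 3 on the log2 scale here. The pooled SD within groups was 0.11 on the log2 scale, and among 2178 tested genes within 0.5 of its mean log2 CPM the median was 0.15, with 28.9% of them less variable. Genes called lower at an adjusted p under 0.05 made up 0.00627% of those tested, which is 1 gene, 1600014C10Rik; 0 were called higher (0% of those tested) by edgeR, where 786 genes (4.93%) had an unadjusted p under 0.05 and DESeq2 called 42 lower and 46 higher. Nothing is read from that call or from the spread, because the gene was picked on this contrast for a fall in every siPiezo1 library.

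Per length, 1600014C10Rik averaged 5.57 ± 0.564 CPM per kilobase of exon in siPiezo1 and 15.8 ± 0.619 CPM per kilobase in siNC (SD, n = 3 each). Over all 6 libraries its level per kilobase exceeded that of 73.4% of 15939 tested genes with a known length, so this is a transcript that stretched BMDMs carry at an above-median level. No other gene's transcripts matched it over 300 bases or more at 80% identity or above. The longest match was 119 bases, to D530033B14Rik, an antisense RNA gene on the opposite strand, which shares 113 exon bases with 1600014C10Rik (2.86% of its exon bases). The antisense RNA had 8 estimated counts in siPiezo1 1 and 0 in siPiezo1 2 and 3, against 16 in siNC 1 and 0 in siNC 2 and 3. The libraries were made with strand marking per the labels' protocols, but the sources used here do not say whether counting used the strand.

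Among all genes, 1600014C10Rik ranked higher by the distance between the groups than by the fold change. The gap between the lowest siNC and the highest siPiezo1 library was 2.47-fold. Among 10054 tested genes with a mean of at least 5 CPM, this was the largest such gap; among all 15959 it ranked 23, behind genes with fewer counts. The next were Mrc1, the mannose receptor, with a gap of 1.98-fold, and Gatm, the enzyme of the first step of creatine synthesis, with 1.74-fold. Piezo1 itself had a gap of 1.59-fold. Every siPiezo1 library was lower than every siNC library for 902 genes, or 5.65% of those tested, and every one was higher for 996 genes, or 6.24%. These ranks describe the pattern for which the gene was picked and support nothing further.

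**Figure D2:**
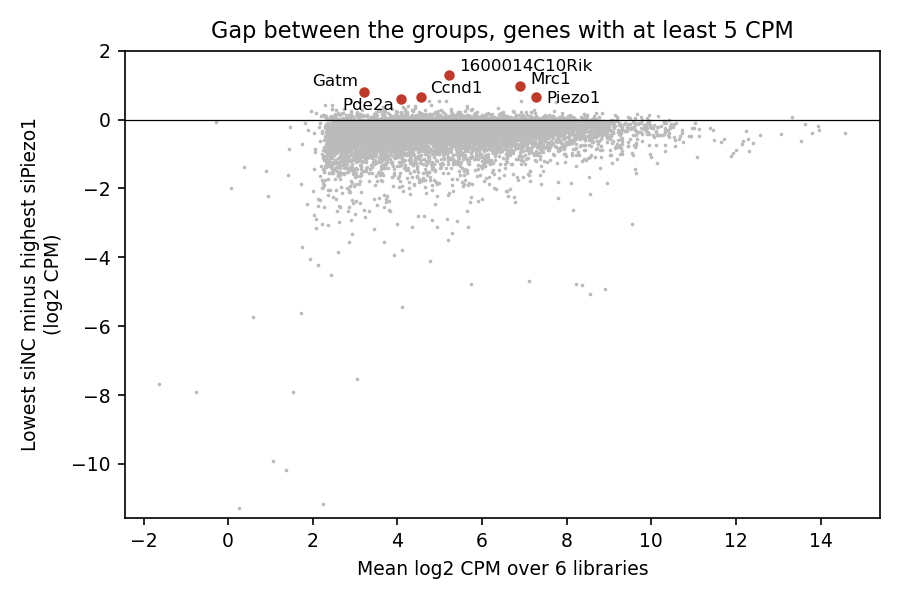
Lowest siNC minus highest siPiezo1 value in log2 CPM (vertical axis) against mean log2 CPM over 6 libraries (horizontal axis) for 10054 genes with a mean of at least 5 CPM; grey points are genes, and red points are the 6 genes with the largest gaps. Values above 0 mean that every siPiezo1 library was lower than every siNC library, and 1600014C10Rik lies highest, at a gap of 2.47-fold.

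By fold change alone, 51 of the 10054 genes had a lower log2 fold change than 1600014C10Rik. In 48 of those 51 the highest library was siNC 2. In 3 of the 51 the groups did not overlap, a share near the 5.65% of all genes tested. That share is no contrast to 1600014C10Rik, which was picked because its groups did not overlap. Without siNC 2, 11 of 9992 genes had a lower log2 fold change. One of the 51, the chemokine gene Ccl2, had 20.8, 25.1 and 30.8 CPM in siPiezo1, against 16.9, 598 and 17.5 CPM in siNC 1, 2 and 3. In that gene siNC 2 alone is high and the other siNC libraries lie below all siPiezo1 libraries. Other genes of inflammation among the 51 were also highest in siNC 2. Il1b had 292 CPM there, against 16.8 to 30.3 CPM in the other libraries, and Il6 had 29.2 CPM, against 0.198 to 0.852 CPM. The summed neutrophil markers, too, were highest in siNC 2, where 1600014C10Rik stood 0.09 on the log2 scale above the mean of siNC 1 and 3.

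The genes with the profile most like that of 1600014C10Rik were sought over the 6 libraries. The profile is log2 CPM minus the gene's mean, and likeness is the root-mean-square (RMS) difference between profiles, over 9618 eligible genes. The closest was Gatm, with an RMS difference of 0.27 on the log2 scale. It had 5.44, 5.91 and 6.55 CPM in siPiezo1, against 13.0, 20.2 and 11.4 CPM in siNC, and like 1600014C10Rik it was highest in siNC 2. Pde2a, a phosphodiesterase of cAMP and cGMP, came next at 0.30, with 10.3, 11.4 and 14.8 CPM in siPiezo1, against 26.8, 23.1 and 22.4 CPM in siNC. Mrc1 followed at 0.32, with 61.4, 99.4 and 60.3 CPM in siPiezo1, against 198, 198 and 196 CPM in siNC. The siNC libraries of Mrc1 were nearly level, and siPiezo1 2 was the highest of its group, where 1600014C10Rik was lowest. Piezo1 (0.34) and Ccnd1, the cyclin D1 gene (0.35), completed the 5, and the sixth gene stood at 0.37. Ccnd1 had 13.9, 18.5 and 14.2 CPM in siPiezo1, against 29.1, 53.8 and 30.8 CPM in siNC. Since 1600014C10Rik was picked for a fall between the groups, genes like it share that fall by construction.

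This list of 5 rests on siNC 2. Without that library the nearest genes were Apoe (RMS difference 0.11), Pltp (0.19), Gatm (0.25), Cacna1a (0.25) and Ednrb (0.26), of which 1, Gatm, is among the first 5. Apoe, a lipid carrier of macrophages, had 257, 244 and 240 CPM in siPiezo1, against 677, 101 and 712 CPM in siNC 1, 2 and 3. Pltp, which transfers phospholipids between lipoproteins, had 77.9, 83.8 and 68.3 CPM in siPiezo1, against 211, 27.6 and 227 CPM in siNC 1, 2 and 3. In these 2 genes siNC 2 lay below every siPiezo1 library, which 1600014C10Rik did not share. Ranked by Pearson correlation over 6 libraries in place of the RMS difference, the first were Adssl1 (r = 0.996), a muscle-type enzyme of AMP synthesis, and the spectrin gene Sptan1 (r = 0.991), and 0 of the first 5 were shared with the RMS list. Their falls were smaller: Adssl1 had a log2 fold change of -0.60 ± 0.08 and Sptan1 of -0.63 ± 0.08 (SE). Correlation compares the shape of the profiles and leaves out their size.

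Seen the other way round, Gbp10 was closest to the mirror image of the profile (RMS difference 0.14). Gbp10, a guanylate-binding GTPase, had 8.86, 10.3 and 8.50 CPM in siPiezo1, against 2.98, 3.06 and 2.50 CPM in siNC; it belongs to a family of near-identical copies, so its counts are uncertain. Zfp451, a SUMO ligase (0.27), had 40.1, 38.6 and 42.9 CPM in siPiezo1, against 18.3, 19.9 and 20.2 CPM in siNC. Rab19, a small GTPase of membrane traffic (0.32), had 6.09, 7.98 and 6.35 CPM in siPiezo1, against 2.75, 3.81 and 3.74 CPM in siNC. In all 3 genes every siPiezo1 library was higher than every siNC library, as in 6.24% of all genes tested. Genes chosen as a mirror image of this profile share that rise by construction.

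**Figure D3:**
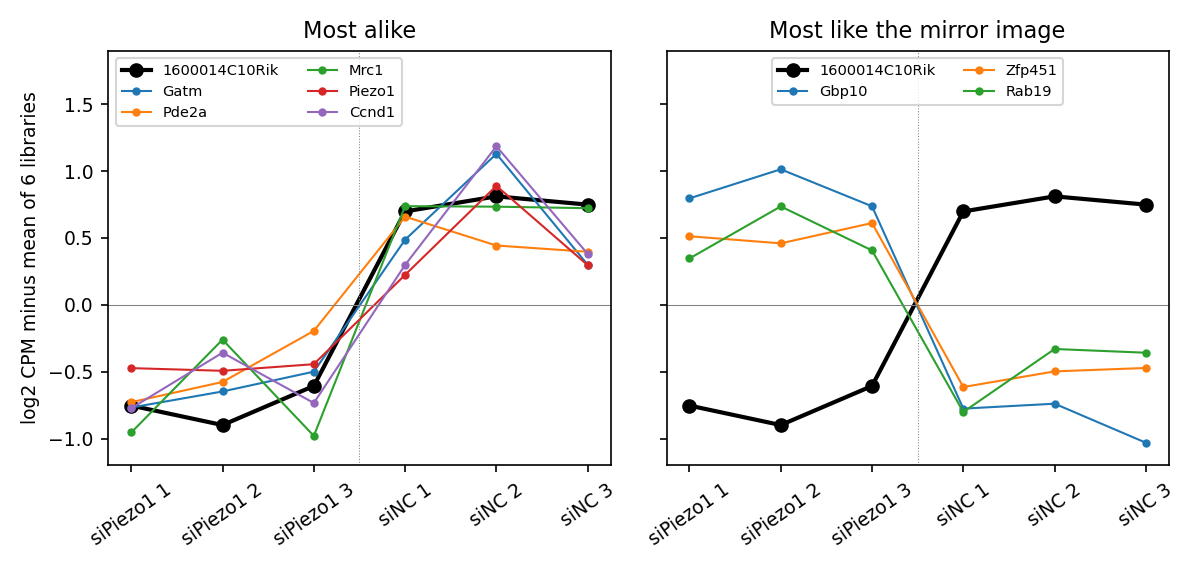
log2 CPM minus the mean of 6 libraries (vertical axis) by library (horizontal axis, siPiezo1 left of the dotted line and siNC right of it) for 1600014C10Rik in black, with the 5 genes most alike on the left and the 3 most like its mirror image on the right. 1600014C10Rik is nearly level within each group, while Gatm, Piezo1 and Ccnd1 peak in siNC 2.

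The genes beside 1600014C10Rik on chromosome 7 were read next. Of the 3 nearest tested genes on each side, in GENCODE M21 order, 0 of 6 passed edgeR's threshold, whether siNC 2 was kept or left out. DESeq2 called 0 with all 6 libraries. These counts say little, since few of all genes tested were called. Lower and higher, edgeR called 0.00627% and 0% with all libraries and 0.45% and 0.645% without siNC 2. DESeq2 called 0.265% and 0.29%. An unadjusted p under 0.05 was reached by 0 of the 6 neighbours with all libraries (4.93% of all genes tested, edgeR). Without siNC 2 it was reached by 1, Ccne1 (edgeR). Ccne1, the cyclin E1 gene and the nearest on one side, had 14.4, 16.3 and 17.2 CPM in siPiezo1, against 9.81, 22.5 and 11.8 CPM in siNC, and the groups overlapped. Its log2 fold change was 0.12 ± 0.31 (SE; adjusted p = 0.992, edgeR) and 0.56 ± 0.15 (SE) without siNC 2 (adjusted p = 0.130, edgeR). Without siNC 2 every siPiezo1 library was higher than both other siNC libraries for 4 of the 6 neighbours, Ccne1, Uri1, Plekhf1 and Pop4, where 17% of all genes tested showed this; with all libraries this held for 0 of them (6.24% of all genes tested). Without siNC 2, Uri1 was close to a tie, with 20.38 CPM in siPiezo1 2 against 20.36 CPM in siNC 3. The groups lay 0.08 apart on the log2 scale for Pop4, 0.10 for Plekhf1 and 0.29 for Ccne1. Uri1, a prefoldin-like chaperone gene, had a log2 fold change of 0.06 ± 0.17 and 0.20 ± 0.15 without siNC 2 (SE). Tshz3, a zinc finger gene under 1 CPM in every library, had 0.69 ± 1.04 and 0.85 ± 1.18 without siNC 2 (SE). On the other side, Plekhf1, which encodes an endosome and lysosome protein, had 0.43 ± 0.39 and 0.69 ± 0.41 without siNC 2 (SE). Pop4, a subunit of RNase P and RNase MRP, had 0.03 ± 0.17 and 0.22 ± 0.12 without siNC 2 (SE). Zfp939, listed as a transcribed pseudogene, had -0.41 ± 0.34 and -0.55 ± 0.37 without siNC 2 (SE). Uri1 was lower in siPiezo1 when siPiezo1 1, siNC 1 or siNC 3 was left out, and Ccne1 and Pop4 when siNC 1 or siNC 3 was left out, none of them past the threshold. Plekhf1 and Zfp939 stood below 3 CPM, so their fold changes are imprecise.

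**Figure D4:**
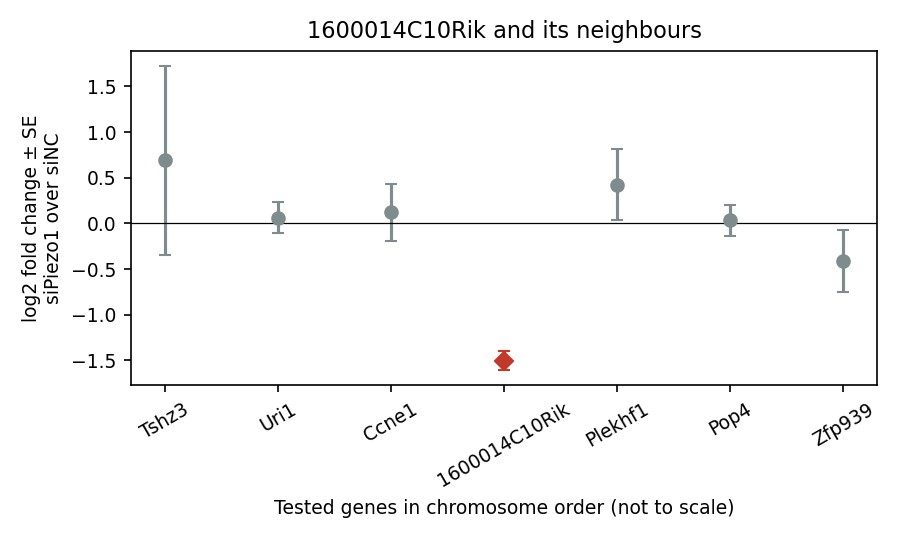
log2 fold change of siPiezo1 over siNC with its SE (vertical axis) for 1600014C10Rik (red diamond) and the 3 nearest tested genes on each side (grey), in chromosome order and not to scale. 1600014C10Rik lies at -1.50, and the neighbours lie between -0.41 and 0.69 with SEs of 0.17 to 1.04.

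Genes of the processes tied to C19orf12 were then read as 8 lists, with 152 distinct tested genes besides 1600014C10Rik. In edgeR's quasi-likelihood test over all genes, 0 of the 152 were higher (0% of all genes tested) and 0 were lower (0.00627% of all genes tested). Without siNC 2 the same test called 0 higher (0.645% of all genes tested) and 1 lower (0.450%), and that gene was Tfrc. By both of these edgeR fits the share of list members called was near that of the whole table. DESeq2, with all 6 libraries, called 1 of them lower (0.265% of the 15869 genes with an adjusted p there), also Tfrc, and 0 higher (0.290%).

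The NBIA disease genes, which cause the same group of disorders in humans, had 11 tested members, of which 7 were below 0 and 4 above it, with a median log2 fold change of -0.09 against -0.01 over all genes tested. Without siNC 2, 9 were below 0 and the median was -0.17, against 0.004 over all genes. Crat, the mitochondrial carnitine acetyltransferase, had 52.7, 53.8 and 47.2 CPM in siPiezo1, against 61.2, 65.0 and 67.0 CPM in siNC. Its groups did not overlap, and its log2 fold change was -0.33 ± 0.09 (SE; adjusted p = 0.885, edgeR). Pank2, which starts coenzyme A synthesis, had 20.3, 24.5 and 18.1 CPM in siPiezo1, against 23.4, 43.9 and 25.4 CPM in siNC, with siNC 2 the highest library. Its log2 fold change was -0.56 ± 0.26 (SE) and -0.22 ± 0.14 (SE) without siNC 2. Every siPiezo1 library was lower than every siNC library for 3 of the 11 members, where 5.65% of all genes tested showed this. Of these 3, Reps1 was close to a tie, with 32.369 CPM in siPiezo1 1 against 32.3715 CPM in siNC 3. Without siNC 2 it was 4 of the 11 members, against 16.4% of all genes. With or without siNC 2, 0 members were higher in every siPiezo1 library. Fa2h was not tested for lack of counts.

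Among 19 tested genes of iron handling, 11 were above 0 and 8 below, with a median of 0.04. Without siNC 2 the tally turned to 8 above 0 and 11 below, with a median of -0.04. Every siPiezo1 library was lower than every siNC library for 3 of the 19 and higher for 2. Without siNC 2 these counts were 5 and 3. The shares of all genes tested were 5.65% and 6.24%, and 16.4% and 17% without siNC 2. Tfrc, the transferrin receptor that brings iron into the cell, had 248, 253 and 211 CPM in siPiezo1, against 466, 379 and 460 CPM in siNC, so the groups did not overlap. Its log2 fold change was -0.87 ± 0.12 (SE; adjusted p = 0.296, edgeR) and -0.97 ± 0.08 (SE) without siNC 2, where it fell past the threshold (adjusted p = 0.00334, edgeR). DESeq2 called Tfrc with all 6 libraries (adjusted p = 1.08e-06, DESeq2). Slc25a37, the mitochondrial iron importer mitoferrin-1, had a log2 fold change of 0.24 ± 0.11 (SE) and did not pass. Of the iron stores, Fth1 (ferritin heavy chain) had 0.04 ± 0.25 and Ftl1 (ferritin light chain, also an NBIA gene) had -0.14 ± 0.09 (SE). Without siNC 2 Fth1 had -0.12 ± 0.29 and Ftl1 had -0.17 ± 0.05 (SE).

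In the lists of mitochondria and their contacts 0 members passed edgeR's threshold. Of 25 tested genes of ER-mitochondria contact, 12 were above 0 and 13 below, with a median of -0.03 and a range of -0.16 to 0.27. Without siNC 2, 14 were above 0 and 11 below, with a median of 0.02. Fundc1, a mitophagy receptor of the outer membrane, had a log2 fold change of 0.22 ± 0.08, and Itpr1, an ER calcium release channel, had 0.24 ± 0.10 (SE). The 15 genes of mitochondrial membrane lipids had a median of 0.02 and the 12 genes of mitochondrial calcium uptake a median of 0.002; without siNC 2 these medians were 0.01 and -0.01. Chkb, a choline kinase, had 0.16 ± 0.14, and Cept1, which makes phosphatidylcholine and phosphatidylethanolamine, had 0.23 ± 0.28 with all libraries and -0.05 ± 0.07 without siNC 2 (SE). Slc8b1, the mitochondrial sodium-calcium exchanger, had 0.15 ± 0.07, and Mcu, the pore of the calcium uniporter, had -0.30 ± 0.22 with all libraries and -0.06 ± 0.15 without siNC 2 (SE). Groups did not overlap, downwards and upwards, for 2 and 2 contact genes, 0 and 0 lipid genes, and 0 and 1 calcium genes. Without siNC 2 these counts were 3 and 4, 1 and 1, and 1 and 4. The shares of all genes tested were 5.65% and 6.24%, and 16.4% and 17% without siNC 2.

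Of 30 genes of autophagy and mitophagy, 22 were above 0 and 8 below, with a median of 0.09. For 10 of the 30 every siPiezo1 library was higher than every siNC library, against 6.24% of all genes tested, and for 1 every one was lower. Without siNC 2 the median was 0.03, with 16 above 0 and 14 below. Groups without siNC 2 did not overlap upwards for 12 of the 30, against 17% of all genes tested, and downwards for 7, against 16.4%. Tax1bp1, an autophagy cargo receptor, had 269, 271 and 283 CPM in siPiezo1, against 247, 247 and 240 CPM in siNC, which is 0.17 ± 0.07 on the log2 scale (SE). Atg12, a ubiquitin-like protein of autophagosome growth, had 0.16 ± 0.07 (SE). These differences were small, and 0 members passed by edgeR.

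Fatty acid oxidation (18 genes) had a median of 0.01, with 10 above 0 and 8 below, and the breakdown of branched-chain amino acids (22 genes) a median of -0.001, with 11 above 0 and 11 below. Without siNC 2, fatty acid oxidation had 7 above 0 and 11 below, with a median of -0.03, and branched-chain amino acid breakdown had 8 above 0 and 14 below, with a median of -0.07. Groups did not overlap, downwards and upwards, for 2 and 1 of the 18 and for 1 and 1 of the 22 genes. Without siNC 2 these counts were 6 and 3, and 6 and 1. The shares of all genes tested were 5.65% and 6.24%, and 16.4% and 17% without siNC 2. Acsl1, which activates long-chain fatty acids, had 818, 608 and 744 CPM in siPiezo1, against 561, 367 and 542 CPM in siNC. Its groups did not overlap, siNC 2 was the lowest library, and its log2 fold change was 0.56 ± 0.19 (SE) and 0.39 ± 0.12 (SE) without siNC 2. Acads, a short-chain acyl-CoA dehydrogenase, had -0.26 ± 0.14 (SE). Ivd, of leucine breakdown, had 33.4, 30.5 and 27.5 CPM in siPiezo1, against 48.7, 36.2 and 40.9 CPM in siNC, which is -0.46 ± 0.14 on the log2 scale (SE; adjusted p = 0.967, edgeR). Dbt, a core subunit of the branched-chain ketoacid dehydrogenase, had 0.38 ± 0.12 (SE).

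**Figure D5:**
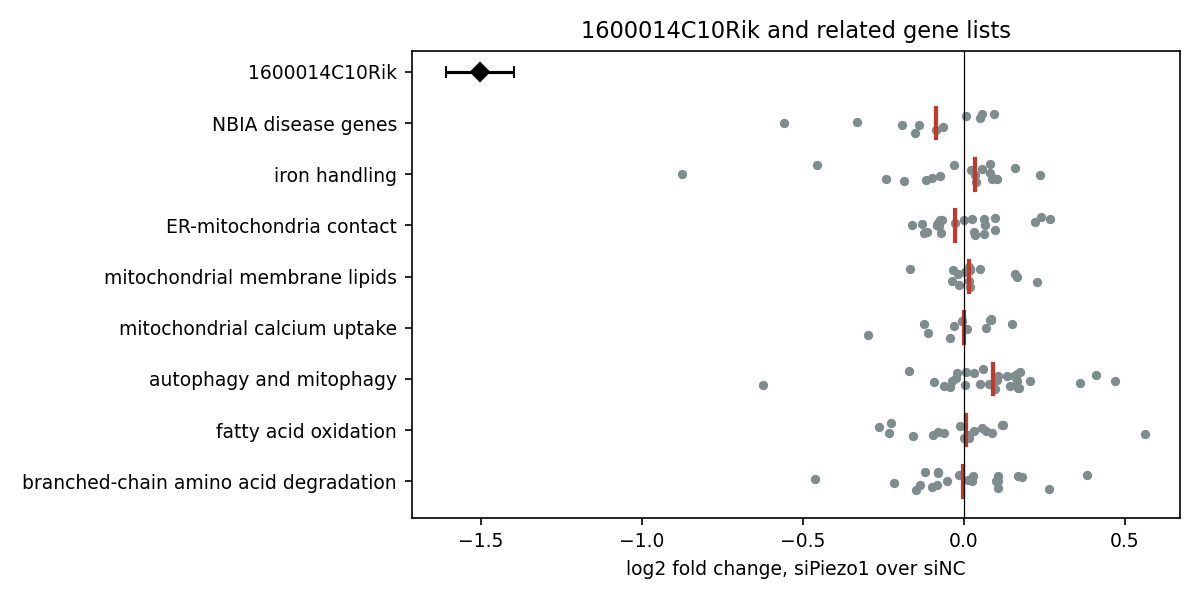
log2 fold change of siPiezo1 over siNC (horizontal axis) for 1600014C10Rik (black diamond with its SE) and for each tested member of 8 gene lists (grey points, spread vertically for legibility); red lines are list medians. List medians lie between -0.09 and 0.09, and 1600014C10Rik lies at -1.50, below every list member shown.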

How the data were processed

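Poly(A) RNA of 6 libraries was sequenced as paired-end reads after strand marking with dUTP, per the labels' protocols. Per the submitters' processing notes, cutadapt 1.9, HISAT2 2.0.4, StringTie 1.3.4d, DESeq2 and edgeR were used with the build GRCm39; the sources used here give neither their roles nor the annotation release. The values as deposited are estimated counts per Ensembl gene, whole numbers without scaling between libraries. Low values pile up in steps, and the step was sought only near multiples of 3.8. That 1 fragment was worth about 3.8 counts is therefore an assumption. The fragment numbers, Poisson intervals and counting errors rest on it. The test had been planned for counts and was kept. All columns were mapped to samples by title (0 left over). Names came from GENCODE M21 (55141 of 55401 identifiers; the rest held at most 0.00886% of a library).

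Genes were kept by filterByExpr (15959), scaled by TMM (factors 0.988 to 1.028) and tested with edgeR 4.0.16's quasi-likelihood test (robust, group only) in R 4.3.3, with Benjamini-Hochberg adjustment over all tested genes and a threshold of 0.05. The SE was obtained as |log2 fold change| / √F. Log2 CPM used a prior count of 0.5. The test was also run on simulated counts with 200 changed genes. Those counts lacked the steps of the deposited values, so no conclusion is drawn from them. Copies were sought with blastn 2.17.0. Alternatives used DESeq2 1.42.0 and limma 3.58.1 (voom).

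The gene and the lists were chosen with earlier results of these data known. Named genes are 1600014C10Rik, Piezo1, the 5 like and 3 mirror-image profiles (at least 5 CPM on average, predicted models left out), the 3 nearest tested genes on each side, and in each list the members past the threshold or else the 2 with the smallest p. Ccl2, Il1b, Il6, Fth1, Ftl1, Fa2h, Reps1, the genes named without siNC 2 and those ranked by correlation were added after their values were seen.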

Additional observations from a re-analysis of the deposited data

How the results depend on the processing

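The log2 fold change of 1600014C10Rik stayed between -1.58 and -1.43 under all 14 alternatives: DESeq2's size factors, library totals, no filter on low counts, at least 50 counts in 3 libraries, DESeq2, limma-voom, a replicate block (-1.51 ± 0.12, SE), each library left out, and counts turned into fragments, the last added after the data were seen. Each moved it by less than the pooled SD within groups. The gene was picked for a fall in every siPiezo1 library, so this steadiness follows in part from that choice. It is no support for the fall. Piezo1 had -0.98 and passed with DESeq2; leaving out 1 library gave -1.09 to -0.73, and it passed without siNC 2. Genes called lower numbered 0 with library totals, 0 with the replicate block and 42 with DESeq2, and 0 to 74 when 1 library was left out (74 without siNC 2); genes called higher numbered 46 with DESeq2 and 0 to 106 (106 without siNC 2). The cause was not tested. List members called lower numbered 1 with DESeq2 and 0 to 1 with a library left out. Of the 5 genes with the most similar profile, 0 were shared when ranked by Pearson correlation and 1 without siNC 2. With a library left out, Ccne1 ranged from -0.10 to 0.56, Uri1 from -0.083 to 0.20, Pop4 from -0.10 to 0.22 and Cept1 from -0.054 to 0.41. Of 405 values of 29 named genes, not counting 1600014C10Rik and Piezo1, 382 kept direction and side of the threshold. A further 15 passed it where they had not, and 8 turned sign. The same replicate numbers did not deviate together (correlations 0.03, -0.06 and -0.07 for numbers 1, 2 and 3). With siNC 2 standing apart, this cannot tell whether they shared an animal, a culture or a batch. Depth limits the neighbours Tshz3, Plekhf1 and Zfp939, whose fold changes have SEs of 0.34 to 1.04.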
